A study of Homo sapiens with 48 samples.

Results

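The comparison set the response of AMO1 cells to silencing of IRE1 against their response to silencing of XBP1 at 48 h. AMO1 cells are an established human line of multiple myeloma, a cancer of plasma cells. Of the 48 libraries of the series, 24 were used, namely the 0 and 48 h libraries of 4 clones with 3 biological replicates each. The study asked which functions of myeloma cells need IRE1 and not the transcription factor that IRE1 activates.

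The shIRE1 clones 1 and 3 have the genotype AMO-1 IRE1 sh7,8,9, and the shXBP1 clones 1 and 18 have the genotype AMO-1 XBP1 sh4,6,7. Each clone carries 3 short hairpin RNAs (shRNAs) together, all against 1 target, which are switched on by doxycycline (Dox, 0.2 µg/ml). Each clone grew out of a single cell, so that 2 clones stand for each target. The 48 h groups received Dox for 48 h and the 0 h groups did not. A non-targeting shRNA was not analysed here, so an effect of Dox is part of each response, and what it does alike in all 4 clones cancels in the difference on the log scale. Both clones of a target hold the same shRNAs, so that the loss of the target and any other effect of those shRNAs cannot be told apart.

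IRE1, the product of ERN1, spans the membrane of the endoplasmic reticulum (ER). When unfolded proteins build up, its cytoplasmic RNase removes an intron from the XBP1 mRNA, and the spliced mRNA encodes XBP1s, a transcription factor for genes of protein translocation, folding, glycosylation, degradation and transport. The same RNase cleaves other mRNAs at the ER membrane, a process named regulated IRE1-dependent decay (RIDD). Plasma cells and myeloma cells secrete large amounts of immunoglobulin, and XBP1s supports that secretory apparatus. Counts per gene do not tell spliced from unspliced XBP1 mRNA.

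The promoters of 6 genes described in the results are printed below, each as the 120 bases just before the annotated transcription start (RefSeq, GRCh38.p14), because they carry short motifs that are known to be read by the factors named here. Capitals mark the match to the motif. XBP1 and HSPA5, which encodes the chaperone BiP, hold the ER stress element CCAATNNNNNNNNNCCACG, which is bound by ATF6 and XBP1s together with NF-Y. The others hold TGACGTGG, a long form of the XBP1s core site GACGTG (KDELR3, a receptor that returns proteins to the ER), TTTGAA, the cell cycle homology region (CHR) that is bound by the DREAM and MuvB complexes (PRC1, a protein of the mitotic spindle midzone), one of the E2F letters TTTCCCGC, TTTGGCGC and TTTCGCGC (RFC3, a subunit of the replication clamp loader), and the interferon-stimulated response element (ISRE, searched as GAAA, any 2 bases and GAAA), which is bound by IRF factors (TAPBP, or tapasin, which loads peptides on MHC class I). The matches in KDELR3 and RFC3 are on the other strand, and the capitals in TAPBP hold 2 overlapping matches.
XBP1 (chr22:28800570-28800689, minus strand): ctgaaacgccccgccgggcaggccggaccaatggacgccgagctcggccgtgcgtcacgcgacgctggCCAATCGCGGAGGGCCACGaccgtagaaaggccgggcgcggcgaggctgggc
HSPA5 (chr9:125241344-125241463, minus strand): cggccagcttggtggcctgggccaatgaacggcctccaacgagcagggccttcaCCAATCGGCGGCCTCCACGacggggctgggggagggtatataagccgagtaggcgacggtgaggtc
KDELR3 (chr22:38467976-38468095, plus strand): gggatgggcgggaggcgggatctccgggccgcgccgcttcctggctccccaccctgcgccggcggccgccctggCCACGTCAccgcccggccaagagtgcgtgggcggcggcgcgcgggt
PRC1 (chr15:90994536-90994655, minus strand): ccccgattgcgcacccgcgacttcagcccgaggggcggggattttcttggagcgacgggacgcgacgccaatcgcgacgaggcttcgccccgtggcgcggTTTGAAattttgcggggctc
RFC3 (chr13:33818029-33818148, plus strand): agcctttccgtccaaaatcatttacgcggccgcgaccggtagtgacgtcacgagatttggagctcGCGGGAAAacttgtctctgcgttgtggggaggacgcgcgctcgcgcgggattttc
TAPBP (chr6:33314079-33314198, minus strand): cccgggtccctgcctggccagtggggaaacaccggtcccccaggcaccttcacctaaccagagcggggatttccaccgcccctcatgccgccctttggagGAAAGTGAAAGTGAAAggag

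Total counts per library ranged from 19177855 to 36736372 (median 29748357), so that 1 count was worth at most 0.0521 CPM, the count relative to the library total in the usual unit of RNA-seq, in which all levels below are given. CPM of a named gene were scaled by the library's normalization factor, and those of the cell type markers in the next sentences by the total count alone. Of 58302 genes in the table, 17777 passed the filter on low counts and were tested. All 24 libraries lay closest to their own clone. The 10 plasma cell markers were present in all of them, with SDC1, the gene of CD138, at 5970 to 14100 CPM. Of the 6 B cell markers, PAX5 was at 0 in 20 of 24 libraries and CD22 in 22, while BACH2 (39.4 to 89.1 CPM), SPIB (5.86 to 45.9 CPM) and MS4A1 (0.0757 to 2.1 CPM) were present in all. Their sum was 67.8 to 74.5 CPM at 0 h and 49.3 to 58.3 CPM at 48 h in the shIRE1 clones, 75.1 to 81.2 CPM and 93.9 to 104 CPM in shXBP1 clone 1, and 123 to 130 CPM and 104 to 108 CPM in clone 18. Of other cells, defining markers at 0 in most libraries were CD2 in 23 of 24 (T cells), FCGR3A in 23 (myeloid cells), and COL3A1 in 22 (fibroblasts), while EPCAM (epithelial cells) was at 0 in 3 and at most at 0.179 CPM in the rest. Other markers of these cells were above 0 in all 24 libraries. They were CD3E (4.24 to 18.4 CPM) and TRBC1 (0.585 to 2.43 CPM) of T cells and CD14 (0.0284 to 0.662 CPM) of myeloid cells. COL1A1 (0.0858 to 1.25 CPM) and PDGFRB (0.0946 to 1.79 CPM) of fibroblasts and KRT8, KRT18 and CDH1 (0.242 to 3.35 CPM) of epithelial cells were present in all as well. The summed plasma cell markers were lower at 48 h than at 0 h in all 4 clones, at 9520 to 10800 CPM at 48 h against 13700 to 18600 CPM at 0 h in the shIRE1 clones, and at 13100 to 16400 CPM against 16800 to 19400 CPM in the shXBP1 clones. The summed 5 T cell markers, nearly all of it CD3E, were 17.2 to 20.5 CPM in the shIRE1 libraries at 48 h against 5.85 to 9.58 CPM at 0 h, and CD2 and CD3D were at or near 0 in both. The same sum was 7.77 to 8.95 CPM at 48 h against 6 to 7.05 CPM at 0 h in shXBP1 clone 1. In shXBP1 clone 18 it was 13.8 to 15.8 CPM against 11.3 to 12.7 CPM. The summed 5 epithelial markers were 4.03 to 7.14 CPM in the shIRE1 libraries at 48 h against 1.1 to 1.94 CPM at 0 h. The part of the cells or genes behind these sums in any result was not tested.

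The target genes were examined first. ERN1 in shIRE1 clone 1 was at 150.5, 148 and 152.5 CPM at 0 h and 91.4, 93.6 and 101 CPM at 48 h. In the other shIRE1 clone, clone 3, it was at 414.5, 444 and 435.5 CPM and then 124.5, 118 and 117 CPM. The 48 h libraries lay below the 0 h libraries of both clones, and the clones started from different levels and ended at similar ones. ERN1 in shXBP1 clone 1 was at 186, 189 and 180.1 CPM and then 289.6, 292 and 286 CPM, and in shXBP1 clone 18 at 412, 404 and 406 CPM and then 339.8, 323 and 332 CPM. The response to shXBP1 thus went up in clone 1 (log2 0.65, adjusted p = 4.59e-11) and down in clone 18 (log2 -0.30, adjusted p = 1.69e-05), and the difference between the targets was -1.43 ± 0.041 (log2, standard error; adjusted p = 2.15e-18).

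XBP1 in shXBP1 clone 1 was at 155, 168 and 169.8 CPM at 0 h and 32.9, 37.95 and 35.5 CPM at 48 h, and in clone 18 at 163.5, 175 and 164 CPM and 44.9, 43.6 and 42.3 CPM. After shIRE1 it went from 181, 175 and 173 CPM to 128, 129.8 and 129 CPM in clone 1 and from 241, 202 and 198 CPM to 108, 115 and 112 CPM in clone 3. XBP1 mRNA fell in all 4 clones, with no overlap between times in any. It fell by 2.21 and 1.94 on the log2 scale after shXBP1 and by 0.45 and 0.94 after shIRE1, so the residual level differed between the 2 arms (difference 1.39 ± 0.062, adjusted p = 4.51e-15). The extent of knockdown, of ERN1 on one side and of XBP1 on the other, was not equal, and its part in the size of the responses was not tested.

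In these 4 clones the 2 knockdowns gave different responses in most genes. The test measures the spread among the 3 libraries of each clone and time. It does not measure the spread between the 2 clones of a target. The difference, the mean log2 response of the shIRE1 clones minus that of the shXBP1 clones, passed the test in 10755 genes (60.5% of those tested), of which 5498 (30.9%) were higher and 5257 (29.6%) lower after shIRE1. A difference of at least 2-fold was found in 2893 genes (16.3%), with 1801 (10.1%) higher and 1092 (6.14%) lower. The shIRE1 response alone passed in 12243 genes (68.9%), in 2753 (15.5%) by at least 2-fold, and the shXBP1 response in 5744 (32.3%), in 161 (0.906%) by at least 2-fold. Across the 17777 genes the Pearson correlation of the 2 mean responses was 0.068, a description over genes that are not independent of each other. The same measure was 0.66 between the shIRE1 clones and 0.042 between the shXBP1 clones, so that the gene-wide response of one shXBP1 clone said little about that of the other. All 4 pairings of a shIRE1 clone with a shXBP1 clone gave a called difference of one direction in 4030 genes (22.7%), 1730 higher and 2300 lower. In a fit of all 48 libraries, the difference passed in 38.7% of genes at 24 h and in 55.3% at 72 h, both against the same 0 h libraries. The 72 h share includes a shXBP1 library that looked like a different clone. In bulk RNA, fewer cells of a kind and less of an mRNA per cell cannot be told apart, and this holds for every value below.

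**Figure D1:**
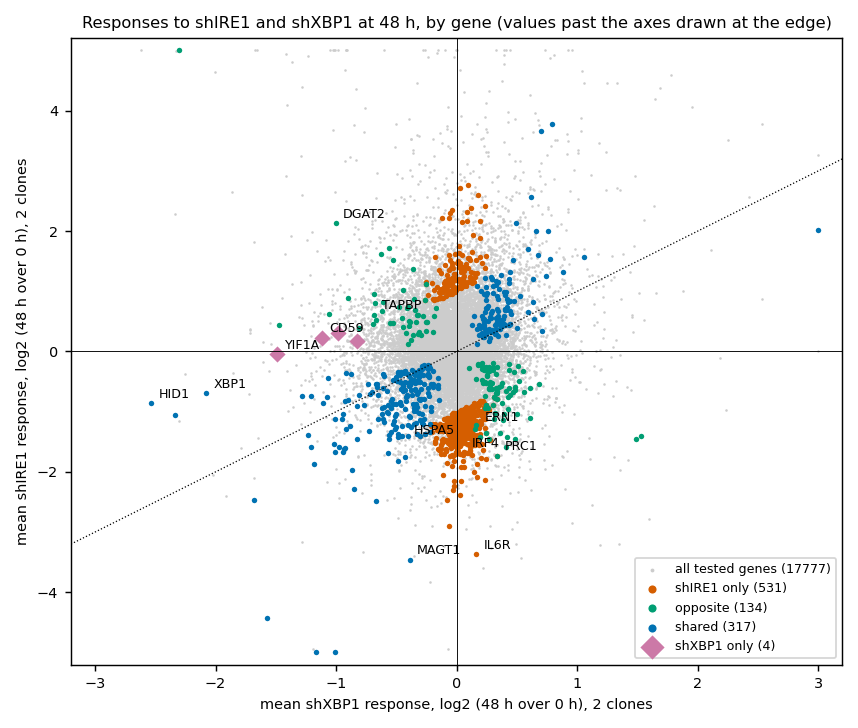
Mean response to shXBP1 (horizontal axis, log2 of 48 h over 0 h, 2 clones) against the mean response to shIRE1 (vertical axis, same scale) for the 17777 tested genes, 1 point per gene, with response classes in colour and values past the axes drawn at the edge. The points spread far more along the shIRE1 axis than along the shXBP1 axis, HID1 and XBP1 lie at the left, and IL6R and MAGT1 lie at the bottom.

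Genes were put in classes by the 4 clones. A gene was counted as depending on IRE1 and not on XBP1 (shIRE1 only) when both shIRE1 clones were called in one direction, the difference was called at 2-fold or more, and the 95% interval of the response of each shXBP1 clone lay within log2 -0.5 to 0.5. By this rule 393 genes (2.21% of those tested) were lower and 138 (0.776%) higher after shIRE1 only. The mirror image (shXBP1 only) held 4 lower genes (0.0225%) and 0 higher genes. No higher gene was found at an unadjusted p under 0.05 in edgeR either, and the adjusted tests of DESeq2 and limma gave 0 as well. The counts of shIRE1 only and shXBP1 only were all the same at the unadjusted p, so the p threshold did not limit them. The 0 belongs to the rule of 2-fold, since 12 higher genes met the rule at a difference of log2 0.5. Both clones of each target were called in opposite directions in 134 genes, 50 (0.281%) higher and 84 (0.473%) lower after shIRE1. A response to shXBP1 can be called and still lie within log2 -0.5 to 0.5, so the classes overlap. Of the genes of shIRE1 only, 15 (2 higher and 13 lower) were also in the opposite class. All 4 clones were called in the same direction in 317 genes, 119 (0.669%) higher and 198 (1.11%) lower. The classes were read from the same responses that the tables hold, so a gene's values in its own class are a description.

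Cell cycle genes made up a large share of the genes lower after shIRE1 only. Of 65 mitosis genes, 64 were lower after shIRE1 than after shXBP1 and 0 higher, 57 of them by at least 2-fold, against 29.6% lower and 30.9% higher among all genes, with a median difference of -1.34 (log2) against 0.042 over all tested genes. The median response of the list was -1.35 to shIRE1 and 0.055 to shXBP1, and 48 of the 65 mitosis genes (73.8%) were in the class lower after shIRE1 only, against 2.21% of all genes. These 48 included CDK1, CCNB1, AURKA, TOP2A and MKI67, named here as examples after their values were seen. Of 50 DNA replication genes 47 were lower and 0 higher (median difference -0.97), and of 37 genes of homologous recombination and Fanconi anaemia 29 were lower and 2 higher (median -1.02). In the class lower after shIRE1 only were 21 of the replication genes (42%) and 17 of the recombination genes (45.9%). The median response of the replication list to shXBP1 was -0.26 in clone 1 and 0.051 in clone 18, and 24 of its 50 members were called lower in the mean shXBP1 response (14.9% of all genes).

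Individual cell cycle genes showed the same separation. PRC1, which bundles microtubules of the spindle midzone, was at 117, 114 and 117 CPM before Dox and 39.96, 38.8 and 43.9 CPM after 48 h in shIRE1 clone 1, against 123, 124 and 116 CPM and 30.9, 32.3 and 30.4 CPM in clone 3. In the shXBP1 clones it was at 112, 117 and 113.5 CPM and then 140.4, 150.1 and 143 CPM (clone 1), and at 111, 108 and 114 CPM and then 142, 140.3 and 139 CPM (clone 18). Every 48 h library was below every 0 h library after shIRE1 and above every 0 h library of its clone after shXBP1. PRC1 therefore fell under both definitions (shIRE1 only and opposite), with a difference of -2.07 ± 0.046 (adjusted p = 5.99e-20). SPC25, a subunit of the kinetochore complex NDC80, ranged over 31.3 to 34.3 CPM (median 32.4) at 0 h and 5.54 to 8.35 CPM (median 7.03) at 48 h in the 6 shIRE1 libraries of each time, and over 29.1 to 38.2 CPM (median 31.5) and 30.5 to 35.3 CPM (median 31.9) in the shXBP1 libraries. Only the shIRE1 ranges of the 2 times were apart, and the difference was -2.22 ± 0.08. RFC3 was at 117 to 166 CPM (median 137) and 36.6 to 50.04 CPM (median 40.7) in the shIRE1 libraries and at 123 to 152 CPM (median 131) and 125 to 138 CPM (median 129) in the shXBP1 libraries (difference -1.69 ± 0.063). WDHD1, a replisome scaffold (difference -1.65 ± 0.068), DSCC1 of the cohesion clamp loader (-2.41 ± 0.063) and AUNIP, a partner of Aurora A (-2.38 ± 0.093), were in the same class.

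Of the regulators of the G1 to S transition, 15 of 23 (65.2%) were lower and 5 (21.7%) higher, against 29.6% and 30.9% of all genes. E2F1, an activating E2F, was at 59.4 to 68.6 CPM (median 61.5) at 0 h and 25.6 to 37.1 CPM (median 29.6) at 48 h in the shIRE1 libraries, with a difference of -0.67 ± 0.081 (adjusted p = 1.58e-07). This is under the 2-fold that the class of shIRE1 only asks for, and E2F1 fell in shXBP1 clone 1 as well (log2 -0.59, adjusted p = 4.31e-06) and was -0.15 in clone 18 (95% interval -0.32 to 0.02). UHRF1, a reader of hemimethylated DNA and a known E2F target, had a difference of -0.78 ± 0.17, and it too fell in shXBP1 clone 1 (log2 -0.98), so that shIRE1 clone 3 against shXBP1 clone 1 alone gave 0.046. CDC25A, the phosphatase that activates CDK2, had a difference of -0.78 ± 0.041, with responses of -1.03 and -0.78 to shIRE1 and of -0.21 and -0.031 to shXBP1. E2F7, a repressive E2F, met the rule for shIRE1 only (difference -1.76 ± 0.074), and E2F5 was higher after shIRE1 (0.96 ± 0.072). Of 27 CDK inhibitors and p53 targets 18 (66.7%) were higher and 4 (14.8%) lower, against 30.9% and 29.6% of all genes. CDKN1A, which encodes the CDK inhibitor p21, ranged over 320.3 to 437 CPM (median 391) at 0 h and 755 to 795 CPM (median 787) at 48 h after shIRE1 and over 391 to 465 CPM (median 407.5) and 319.9 to 436 CPM (median 372) after shXBP1. The shIRE1 ranges did not overlap and the shXBP1 ranges did (CDKN1A fell in shXBP1 clone 1, log2 -0.33), with a difference of 1.22 ± 0.064 (adjusted p = 7.99e-14).

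Some factors of the plasma cell programme responded differently to the 2 knockdowns. IRF4, a lymphoid transcription factor that myeloma cells need for survival, was at 1340, 1252 and 1253 CPM before Dox and 598, 543 and 568 CPM after 48 h in shIRE1 clone 1, against 1414, 1425 and 1366 CPM and 299.6, 310.2 and 320.2 CPM in clone 3. In shXBP1 clone 1 it was at 1329, 1415 and 1420 CPM and 1509, 1656 and 1551 CPM, and in clone 18 at 1599, 1613 and 1582 CPM and 1583, 1567 and 1472 CPM. All 48 h libraries were below all 0 h libraries in the shIRE1 clones alone, and clone 3 fell further than clone 1 (log2 -2.18 and -1.17). The difference was -1.74 ± 0.046 (adjusted p = 5.74e-19), and the 95% interval in shXBP1 clone 18 was -0.15 to 0.042. IL6R, the receptor chain for the growth factor IL-6, had a difference of -3.53 ± 0.067 and ranged over 46.6 to 74.7 CPM (median 57.3) at 0 h and 2.68 to 10.6 CPM (median 6.604) at 48 h after shIRE1. GPRC5D, a surface receptor of plasma cells, had a difference of -2.27 ± 0.058, and PRDM1, the gene of BLIMP-1, one of -0.94 ± 0.041. POU2AF1, a coactivator in B lineage cells, went the other way, up after shIRE1 (log2 0.42 and 0.80) and down after shXBP1 (-0.33 and -0.32). Of 30 genes of this list 17 (56.7%) were lower and 8 (26.7%) higher, against 29.6% and 30.9% of all genes. MYC had a difference of -0.65 ± 0.073, and it fell in shXBP1 clone 1 too (log2 -0.40).

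**Figure D2:**
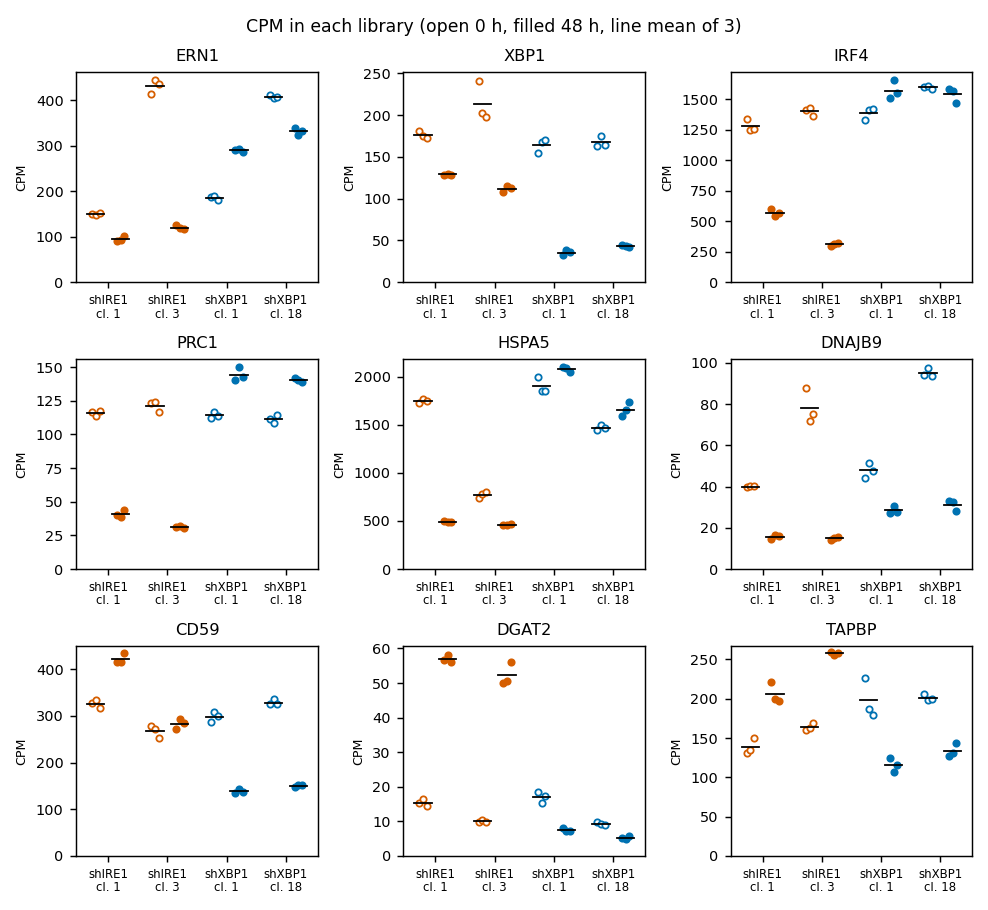
CPM (vertical axis, from 0) of 9 genes in each of the 24 libraries, by clone, with open points for 0 h, filled points for 48 h and a line at the mean of 3 libraries. IRF4 and PRC1 drop in the shIRE1 clones alone, DNAJB9 drops in all 4, CD59 drops in the shXBP1 clones alone, and DGAT2 and TAPBP move in opposite directions.

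Genes of amino acid supply under the control of ATF4, a transcription factor of the integrated stress response, were lower after shIRE1 in 35 of 40 and higher in 2, against 29.6% and 30.9% of all genes (median difference -0.60). Their median response was -0.35 in shIRE1 clone 1 and -1.14 in clone 3, and 0.14 and -0.11 in the shXBP1 clones. CHAC1, a glutathione-degrading enzyme, was at 5.83, 6.75 and 6.62 CPM at 0 h and 4.72, 4.91 and 4.002 CPM after 48 h in clone 1 of shIRE1 but at 50.98, 43.5 and 48.95 CPM and 5.39, 5.25 and 5.305 CPM in clone 3. The 48 h levels of these clones were alike and the 0 h levels were not. In shXBP1 clone 1 it went up (log2 0.66) and in clone 18 down (-0.75). DDIT3, the gene of CHOP, did the same, with responses of -0.24 and -2.17 to shIRE1 and of 0.68 and -0.73 to shXBP1. The differences of CHAC1 (-1.78 ± 0.12) and DDIT3 (-1.18 ± 0.06) are therefore means over clones that disagreed. In the pairing of shIRE1 clone 1 with shXBP1 clone 18 both were above 0, at 0.27 and 0.49. In that pairing 21 genes of the list were lower and 5 higher, and 20 were called lower in all 4 pairings. PSAT1 and PHGDH of serine synthesis and MTHFD2 of mitochondrial folate metabolism were among 6 members in the class lower after shIRE1 only.

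Many genes of the secretory pathway were lower after both knockdowns, more of them after shIRE1 than after shXBP1. Of 25 genes of ER translocation and signal peptide processing 24 were lower after shIRE1 (33.2% of all genes) and 18 after shXBP1 (14.9%), and 15 (60%) were in the class lower in all 4 clones, against 1.11% of all genes. The same class held 11 of 22 ER chaperones (50%), 16 of 42 genes of N-glycosylation, 14 of 41 of ER to Golgi traffic, 6 of 29 of ER-associated degradation and 5 of 20 disulfide isomerases and oxidases. After shIRE1, 19 of the chaperones, 34 of the glycosylation genes, 36 of the traffic genes, 23 of the degradation genes and 17 of the isomerases and oxidases were called lower. After shXBP1 these counts were 14, 25, 32, 18 and 11, and 5 of the 22 chaperones were called higher (17.4% of all genes). Compared between the targets, 17 of the 25 translocation genes were lower after shIRE1 than after shXBP1 and 4 higher, 26 and 6 of the 42 glycosylation genes, 28 and 4 of the 41 traffic genes, 17 and 4 of the 29 degradation genes, and 14 and 3 of the 20 isomerases and oxidases. Among all genes 29.6% were lower and 30.9% higher. SSR2, a subunit of the translocon-associated TRAP complex, ranged over 635 to 925 CPM (median 732) at 0 h and 220.3 to 243 CPM (median 228) at 48 h in the shIRE1 libraries and over 760.4 to 892 CPM (median 824) and 529.6 to 582.5 CPM (median 556) in the shXBP1 libraries. Its times did not overlap in either arm, and the fall after shIRE1 was the deeper (difference -1.11 ± 0.041, adjusted p = 1.41e-16). SEC61B, of the protein-conducting channel, fell further after shXBP1 (difference 0.63 ± 0.11). MAGT1, a subunit of an oligosaccharyltransferase, fell by 3.58 and 3.33 on the log2 scale in the shIRE1 clones and by 0.30 and 0.47 in the shXBP1 clones, and EMC7, of the ER membrane protein complex, fell by 2.81 and 2.99 after shIRE1 with 95% intervals of -0.16 to 0.084 and -0.21 to 0.038 after shXBP1.

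DNAJB9, the BiP cochaperone ERdj4 and an established XBP1s target, was at 39.6, 40.1 and 40.1 CPM before Dox and 14.8, 16.4 and 15.8 CPM after 48 h in shIRE1 clone 1, against 87.6, 71.8 and 75.4 CPM and 14.2, 15.1 and 15.5 CPM in clone 3. In the shXBP1 clones it was at 44.3, 51.6 and 47.6 CPM and 27.4, 30.5 and 27.4 CPM (clone 1) and at 94.1, 97.8 and 93.8 CPM and 32.8, 32.4 and 28.2 CPM (clone 18). It fell in all 4 clones without overlap between times. The mean difference was -0.69 ± 0.075, lower after shIRE1, but shIRE1 clone 1 against shXBP1 clone 18 alone gave 0.26, so the order of the arms depended on the clones. KDELR3, printed above, was at 6.55, 5.91 and 6.42 CPM and then 2.62, 2.42 and 2.74 CPM in shIRE1 clone 1, and at 10.8, 8.62 and 9.12 CPM and then 2.68, 2.08 and 2.196 CPM in clone 3. It was at 7.67, 9.197 and 9.28 CPM and then 8.03, 8.92 and 8.596 CPM in shXBP1 clone 1, and at 17.6, 16.2 and 17.1 CPM and then 10.4, 9.55 and 8.66 CPM in clone 18. The times overlapped in shXBP1 clone 1 alone, and the difference was -1.23 ± 0.11 (adjusted p = 8.53e-10). HID1, a protein of dense core granule formation, was the deepest faller after shXBP1 among the named genes (-2.38 and -2.69) and fell less after shIRE1 (-0.46 and -1.25).

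HSPA5 and a few other chaperones were in other classes. HSPA5 in shIRE1 clone 1 was at 1721, 1763 and 1741 CPM at 0 h and 500.1, 487 and 489 CPM at 48 h, and in clone 3 at 741, 775 and 805 CPM and 461, 455 and 467 CPM. In shXBP1 clone 1 it was at 2000, 1853 and 1848 CPM and 2100, 2090 and 2051 CPM, and in clone 18 at 1448, 1495 and 1460 CPM and 1585, 1653 and 1734 CPM. The 0 h level of shIRE1 clone 3 was the lowest of the 4 clones. HSPA5 fell after shIRE1 and rose by under log2 0.2 after shXBP1 (0.13 and 0.18), with a difference of -1.44 ± 0.04 (adjusted p = 1.35e-18). MANF, a secreted ER resident factor, ranged over 110.0 to 166.5 CPM (median 143) and then 47.5 to 59.9 CPM (median 52.9) after shIRE1 (difference -1.48 ± 0.056), and DNAJB11 and DNAJC1, both BiP cochaperones, were also lower after shIRE1 only. HSP90B1, the chaperone GRP94, was lower in both shIRE1 clones and higher in both shXBP1 clones. Of 22 chaperones in all, 17 were lower after shIRE1 than after shXBP1 and 2 higher, the BiP reductase DNAJC10 (0.58 ± 0.07) and the nucleotide exchange factor SIL1 (0.72 ± 0.091). The shares over all genes were 29.6% lower and 30.9% higher. Of the named genes of ER-associated degradation, HERPUD1 (-1.51 ± 0.045) and EDEM1 (-1.30 ± 0.052) were lower too, and EDEM1 went up in shXBP1 clone 1 (log2 0.34) and down in clone 18 (-0.47). SYVN1 (difference 0.43) and NPLOC4 (0.41) went the other way, higher after shIRE1 than after shXBP1.

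**Figure D3:**
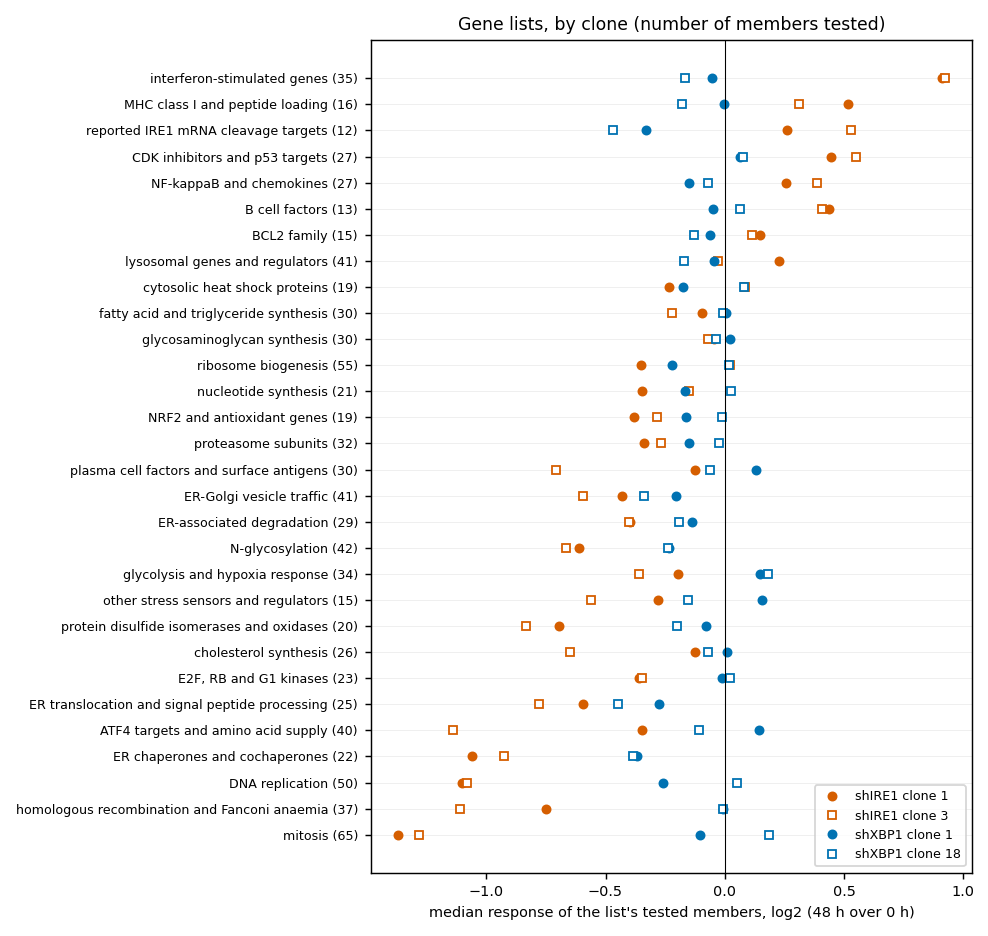
Median response of the tested members of each of 30 gene lists (horizontal axis, log2 of 48 h over 0 h) in shIRE1 clones (orange) and shXBP1 clones (blue), ordered by the median difference. Mitosis, recombination and DNA replication lie at the bottom with shIRE1 medians of -1.37 to -0.75 and shXBP1 medians of -0.26 to 0.18, while the lists of the secretory pathway are below 0 in all 4 clones.

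The reverse, dependence on XBP1 and not on IRE1, was seen in 4 genes, of which 3 are described. CD59, a lipid-anchored inhibitor of complement, was at 286, 308 and 300.4 CPM at 0 h and 134, 143 and 137.5 CPM at 48 h in shXBP1 clone 1, and at 326, 335.5 and 325.5 CPM and 148, 152 and 151 CPM in clone 18. In the shIRE1 clones it was at 328, 335 and 316 CPM and 415, 417 and 435 CPM (clone 1) and at 279, 272 and 254 CPM and 271, 293 and 286 CPM (clone 3). It fell without overlap after shXBP1, rose in shIRE1 clone 1 and overlapped between times in clone 3, with a difference of 1.34 ± 0.044 (adjusted p = 1.31e-17). YIF1A, a protein of ER to Golgi vesicles, was at 71.9, 50.5 and 53.1 CPM and 18.9, 14.9 and 18.6 CPM in shXBP1 clone 1 and at 41.5, 37.7 and 37.5 CPM and 13.8, 15.2 and 20.2 CPM in clone 18. Its 95% intervals after shIRE1 were -0.27 to 0.21 (clone 1) and -0.30 to 0.18 (clone 3), and the difference was 1.45 ± 0.12 (adjusted p = 3.20e-10).

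TMEM179B, a membrane protein, had a difference of 1.01 ± 0.10 at 7.17 to 19.5 CPM in the shXBP1 libraries (adjusted p = 1.21e-08). When a difference of log2 0.5 in place of 1 was asked for, a choice made after the data were seen, 24 lower and 12 higher genes met the rule for shXBP1 only and 1322 lower and 669 higher genes that for shIRE1 only. The 24 included proteins of the Golgi and its glycans (MGAT4B, difference 0.80 ± 0.084, ERGIC1, 0.67 ± 0.038, and TGOLN2, 0.55 ± 0.041), ALG1 and the lysyl hydroxylase PLOD3 (0.88 ± 0.093), and the 12 included VCL, the gene of vinculin (-0.75 ± 0.053), and the histone demethylases KDM7A and KDM3A. KDM3A was also called lower in both shIRE1 clones (-0.25 and -0.17), within the band of log2 -0.5 to 0.5, so that it met the rule for opposite directions too. They were named after their values were seen.

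Responses of opposite direction in all 4 clones were led on the higher side by DGAT2, which makes triglyceride. It was at 15.2, 16.6 and 14.5 CPM before Dox and 56.6, 58.1 and 56.1 CPM after 48 h in shIRE1 clone 1, against 9.93, 10.4 and 9.81 CPM and 50.1, 50.7 and 56.2 CPM in clone 3. In the shXBP1 clones it was at 18.5, 15.4 and 17.3 CPM and 8.09, 7.17 and 7.16 CPM (clone 1) and at 9.7, 9.36 and 8.99 CPM and 5.28, 4.84 and 5.77 CPM (clone 18). It rose after shIRE1 and fell after shXBP1 without overlap between times in any clone (difference 3.13 ± 0.082, adjusted p = 4.54e-19). TMEM165, a Golgi transporter of divalent cations, fell by 1.63 and 1.32 after shXBP1 and rose by 0.46 and 0.42 after shIRE1 (log2). KCNN3, a calcium-activated potassium channel (2.25 ± 0.10), WFS1, or wolframin, of the ER membrane (1.78 ± 0.16), the histone gene HIST1H2AC, uncertain because of near-identical histone genes (2.05 ± 0.079) and CHPF2, of chondroitin polymerization (1.48 ± 0.10), went the same way.

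DGAT2 and CD59 belong to a list of 14 mRNAs that were reported as RIDD substrates of IRE1 in other systems, of which 12 were tested. After shIRE1 10 of the 12 were higher than after shXBP1 and 1 was lower, against 30.9% and 29.6% of all genes, with a median difference of 0.57. The median response was 0.32 to shIRE1 and -0.28 to shXBP1, on either side of 0. Beside DGAT2 and CD59 the higher genes were COL6A1 (2.19), PDGFRB (1.54), TNFRSF10B, the death receptor DR5 (0.67), HGSNAT (0.59), TGOLN2 (0.55), PER1 (0.52), GEMIN5 (0.30) and BLOC1S1 (0.24), all as log2 differences. COL6A1 and PDGFRB were at under 1 CPM on average. TNFRSF10B was at 0.75 and 0.66 in the shIRE1 clones and at 0.074 and -0.0069 in the shXBP1 clones. TGOLN2 fell in both shXBP1 clones (-0.86 and -0.68), and BLOC1S1, a widely used RIDD readout, was at 0.11 and -0.50 in the shIRE1 clones. SPARC, at under 1 CPM on average, was the 1 lower gene (-1.14 ± 0.47, adjusted p = 0.0424), and with 1 library left out it was no longer called in 14 of 24 fits. PMP22 was at -0.035 and did not pass.

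**Figure D4:**
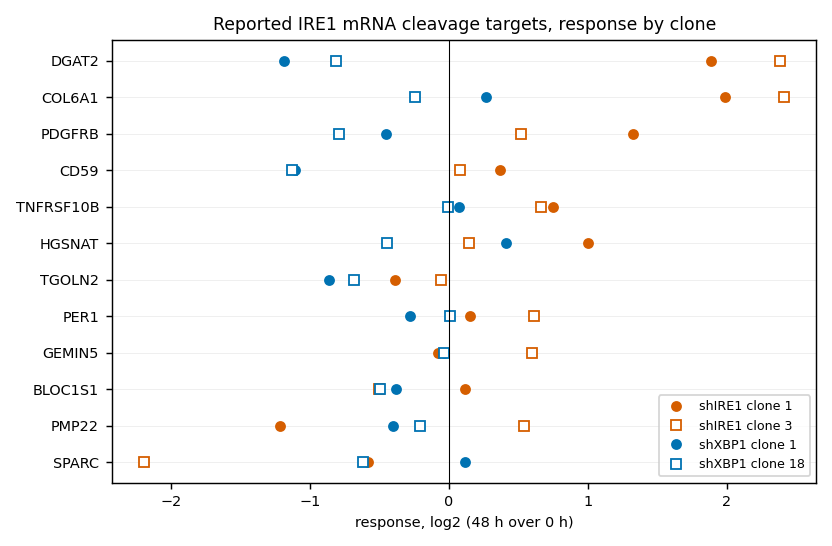
Response (horizontal axis, log2 of 48 h over 0 h) of the 12 tested mRNAs reported as RIDD substrates in each clone, shIRE1 in orange and shXBP1 in blue, ordered by the difference. In DGAT2, CD59 and TNFRSF10B both shIRE1 points lie to the right of both shXBP1 points, while in HGSNAT and BLOC1S1 they interleave or coincide.

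On the lower side of the opposite class, genes of the hypoxia response and glycolysis were 7 of 34 in that list, against 0.473% of all genes, namely PFKFB4, ANKRD37, NDRG1, VEGFA, P4HA1, ENO2 and KDM3A. Of the 34, 24 (70.6%) were lower and 3 (8.82%) higher, against 29.6% and 30.9% of all genes. The list had median responses of -0.26 to shIRE1 and 0.19 to shXBP1. PFKFB4, which sets the level of an activator of glycolysis, was at 4.299, 3.91 and 4.59 CPM at 0 h and 24.7, 22.1 and 21.5 CPM at 48 h in shXBP1 clone 18, and at 5.01, 9.42 and 5.24 CPM and 7.25, 11.02 and 10.99 CPM in clone 1. In the shIRE1 clones it fell by 1.68 and 1.25 on the log2 scale. The rise was large in clone 18 and small in clone 1, where 1 library at 0 h overlapped those at 48 h, and the difference was -2.95 ± 0.19 (adjusted p = 4.72e-12). IDH1, the cytosolic isocitrate dehydrogenase, ranged over 53.2 to 73.6 CPM (median 65.04) and then 19.1 to 30.5 CPM (median 24.04) after shIRE1 and rose by 0.59 and 0.24 after shXBP1 (difference -1.84 ± 0.059). HIF1A itself was higher after shIRE1 (0.54).

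Genes of interferon signalling and antigen presentation were higher after shIRE1. Of 35 tested interferon-stimulated genes 25 were higher and 6 lower than after shXBP1, against 30.9% and 29.6% of all genes (median difference 0.88), and of 16 genes of MHC class I and peptide loading 13 were higher and 1 lower (0.63). NLRC5, the activator of MHC class I genes, ranged over 50.98 to 72.3 CPM (median 63.9) at 0 h and 129 to 185 CPM (median 153) at 48 h after shIRE1 and over 55.4 to 98.1 CPM (median 77.5) and 53.8 to 99.8 CPM (median 76.6) after shXBP1. It rose without overlap after shIRE1 only (difference 1.30 ± 0.078, adjusted p = 8.31e-13). TAPBP rose after shIRE1 (0.57 and 0.65) and fell after shXBP1 (-0.78 and -0.59). CIITA, the activator of MHC class II genes, had a difference of 1.86 ± 0.074 and rose in shXBP1 clone 18 as well (0.52).

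TRIM22, an interferon-induced antiviral factor, was at 0.113, 0.18 and 0.129 CPM before Dox and 16.7, 20.99 and 22.7 CPM after 48 h in shIRE1 clone 1, against 0.116, 0.0433 and 0.108 CPM and 34.4, 34.5 and 34.8 CPM in clone 3. In the shXBP1 libraries it stayed at 0.0283 to 0.566 CPM. The gene was close to the limit of counting in all but the shIRE1 libraries at 48 h, so its difference of 7.06 has a wide 95% interval of 5.78 to 8.34. IFIT3 (-0.95 ± 0.15) and OASL (-0.95 ± 0.13) were lower after shIRE1, B2M was at -0.20 ± 0.054, and in shIRE1 clone 1 against shXBP1 clone 18 alone OASL was at 0.15 and B2M at 0.23. B2M did not pass with library totals alone, and ISG15 did not pass (0.60, adjusted p = 0.114). The chemokine CCL3 of the NF-kappaB list was at 213, 179 and 192 CPM at 0 h and 1.39, 0.71 and 1.03 CPM after 48 h in clone 3 of shIRE1, against 40.5, 37.6 and 50.1 CPM and 3.96, 3.24 and 2.97 CPM in clone 1. Its level is uncertain because of the near-identical copy CCL3L3. CCL3 fell without overlap in both and fell in the shXBP1 clones as well (-1.03 and -0.99). Of 27 members of that list 17 (63%) were higher after shIRE1 and 5 (18.5%) lower, against 30.9% and 29.6% of all genes. LTB (2.29 ± 0.18) and NFKBIE (1.31 ± 0.10) were among the higher.

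The other metabolic and stress lists follow, to be read beside 30.9% higher and 29.6% lower among all genes. Cytosolic heat shock genes, at 31.6% higher and 36.8% lower, lay near these shares. So did the share higher in ribosome biogenesis (27.3%) and the share lower in the BCL2 family (33.3%). Of 26 genes of cholesterol synthesis 17 were lower and 3 higher (median -0.44), with INSIG1, a brake on sterol synthesis, at -0.10 and -2.09 in the shIRE1 clones and at 0.42 (difference) in shIRE1 clone 1 against shXBP1 clone 18. Proteasome subunits were lower in 23 of 32 and higher in 3, all by less than 2-fold (median -0.26). Fatty acid and triglyceride genes were divided into 11 higher and 14 lower, with SCD, the stearoyl-CoA desaturase, at -1.57 ± 0.045. Lysosomal genes were higher in 21 of 41 and lower in 10, with GLA, the alpha-galactosidase, among the lower (-1.49 ± 0.065). Ribosome biogenesis was divided into 15 higher and 23 lower, NRF2 and antioxidant genes into 3 and 9, and nucleotide synthesis into 3 and 11, where DCK, the deoxycytidine kinase, was the lowest (-2.18 ± 0.095). Of 19 cytosolic heat shock genes 6 were higher and 7 lower, and HSP90AA1 fell in both shIRE1 clones (-2.01 and -0.999). Glycosaminoglycan synthesis (7 higher and 12 lower of 30), B cell factors (5 and 2 of 13), other stress sensors (1 and 12 of 15, median -0.43) and the BCL2 family (6 and 5 of 15) completed the lists. Within the BCL2 family the survival factor BCL2L1 was higher (1.05 ± 0.067) and the BH3-only gene PMAIP1, or NOXA, lower (-0.88 ± 0.068).

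Of the other named genes, those that rose after shIRE1 only were TTC28 (2.34 ± 0.06), the sarcomeric giant TTN (2.67 ± 0.092), the fatty acid transporter SLC27A1 (2.69 ± 0.14), LINC01215 (2.36 ± 0.089) and TENM3 (2.43 ± 0.093). TENM3 rose by 4.52 in shIRE1 clone 3 and by 0.69 in clone 1. ABHD3, a phospholipase, was lower (-2.37 ± 0.069). In all 4 clones CD96, a receptor of T and NK cells (beside it, the summed T cell markers given above were higher at 48 h in all 4 clones too), SORL1, CALHM1, ZNF608 and CRYBG1 rose. CD96 ranged over 12.3 to 14.6 CPM (median 13.9) and 141 to 233 CPM (median 195.5) after shIRE1 and over 2.62 to 3.57 CPM (median 3.06) and 3.87 to 6.47 CPM (median 5.46) after shXBP1, and ZNF608 had the closest responses of the 5 (1.75 and 1.39, 1.35 and 0.76).

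The class rules did not use promoter sequence, and the share of promoters with each motif is given as a description. A promoter of 300 bases (250 before and 50 after the start) was matched for 11050 of the 17777 tested genes, and each motif was searched on both strands. The XBP1s core GACGTG was found in 38 of 158 promoters (24.1%) of genes lower in all 4 clones, in 40 of 307 (13%) of genes lower after shIRE1 only, and in 10.5% of all tested genes. In the lists of ER translocation and of ER to Golgi traffic it was found in 40.9% and 52.8%. The long form TGACGTGG, which contains the core, was found in 7 of the 158 (4.43%) and 1 of the 307 (0.326%), against 0.914%. The CHR letters TTTGAA were found in 79 of the 307 (25.7%) and 11 of the 158 (6.96%), against 9.97% of tested genes and 15.4% of all 27305 promoters, and in 66.7% of mitosis genes. The E2F letters were found in 41 of the 307 (13.4%) and 6 of the 158 (3.8%), against 4.54%, and in 47.6% of DNA replication genes.

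The ER stress element was rare, in 0.127% of tested genes, and was found in 6 of 20 chaperone promoters. HSPA5, printed above, was among them. The CCAAT box, which is part of that element, was found in 52.1% of promoters lower after shIRE1 only and in 44.3% of those lower in all 4 clones, against 36.8%. ISRE letters were found in 69.2% of the interferon-stimulated list and in 53.8% of the MHC class I list, but in 3.6% of promoters higher after shIRE1 only, against 2.97% of tested genes. Shares in all 27305 promoters were 7.89% for GACGTG, 0.795% for TGACGTGG, 2.79% for E2F, 3.65% for ISRE, 35.7% for CCAAT and 0.0806% for the ER stress element. A match is a run of letters in the reference sequence, and binding was not measured in these samples.

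**Figure D5:**
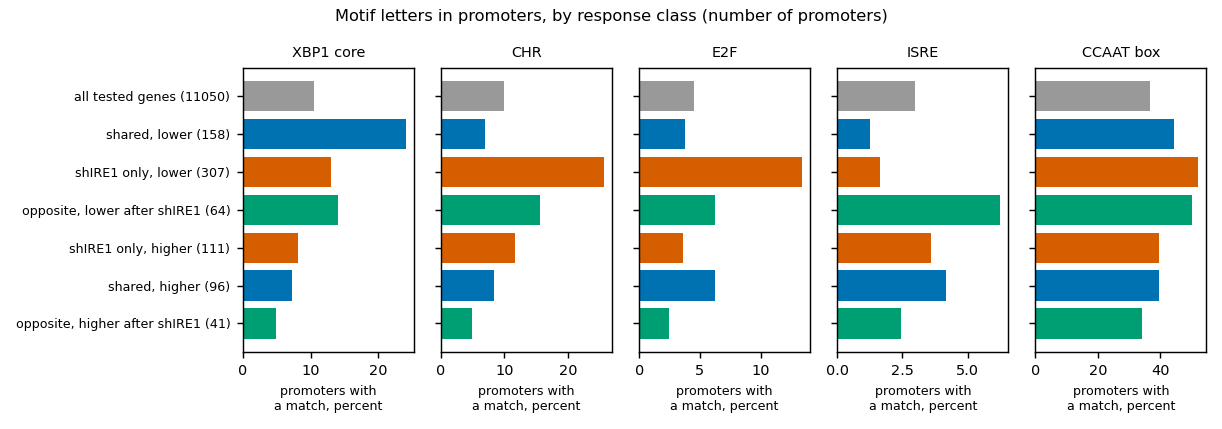
Percent of promoters with a match to each of 5 motifs (horizontal axes, from 0, each panel with its own scale) in all tested genes (grey) and in 6 response classes, with the number of promoters in brackets. XBP1 core matches are most frequent in the genes lower in all 4 clones, and CHR and E2F matches in those lower after shIRE1 only. The 3 promoters of shXBP1 only are not drawn.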

How the data were processed

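AMO1 cells were profiled by polyA RNA-seq (TruSeq stranded mRNA, single-end 50 base reads, per the labels). The authors deposited raw counts per gene and a log2 table, which equals the log2 CPM that edgeR gives from those counts with a prior count of 2. The submitters' processing notes name GSNAP, R 4.1.3, edgeR 3.32.1 and limma 3.46.0. The labels name GRCh37 and the paper names GRCh38, the tables hold gene IDs only, and use of strand in counting is not given in the sources used here, so overlapping genes are uncertain.

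Genes were filtered with filterByExpr, scaled by TMM and tested with the quasi-likelihood F test of edgeR 4.0.16 (R 4.3.3) on the 24 libraries of 0 and 48 h, 1 coefficient per clone and time, with Benjamini-Hochberg adjustment over 17777 genes and a threshold of 0.05. Every adjusted p and standard error is from this fit, and log2 values are log2 fold changes. Main results used 24 of the 48 libraries because replicate 3 at 72 h of the samples labelled shXBP1 clone 18 looked like a different clone and would have entered the shared spread. Titles write days, and the treatment label, which was followed, gives hours. The replicates are labelled biological.

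In each of 30 gene lists (923 genes, 32 not tested) the 2 highest and 2 lowest called differences with a mean log2 CPM above 2 were named, and in each class the 5 largest whose 48 h libraries all lay beyond the 0 h libraries. For the class with all 4 clones in 1 direction the mean response ranked them. ERN1, XBP1, IRF4, PRDM1, MYC, E2F1, UHRF1, CDC25A, CDKN1A, CD59, DGAT2 and DNAJB9 were always named. Other names were chosen after their values were seen. The lists and rules were chosen with earlier results of these data known. Alternatives were other scalings, no filter, DESeq2 1.42.0, limma 3.58.1 on the deposited log2 values, all 48 libraries, single clone pairs, replicate blocks and leaving out each library. On simulated counts for 17210 genes with 200 changed, 98.5% of 1.5-fold and 100% of 2-fold and 4-fold changes in the difference at 48 h were called. Before the change each simulated gene had the same mean in all groups, and the change was the same in both shIRE1 clones. Changed genes had a mean log2 CPM above 2. The recovery therefore says nothing of clones that disagree or of genes at lower counts. Promoter sequences are from RefSeq (GRCh38.p14). Results of some genes are not reported here.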

Additional observations from a re-analysis of the deposited data

Results flagged for a closer look

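Clones of the same target differed in their responses, by the edgeR test of the difference between clones. The shIRE1 clones differed in 6239 genes (35.1% of those tested) and the shXBP1 clones in 5092 (28.6%). Among named genes that were called in opposite directions in the clones of 1 target, shIRE1 clone 1 minus clone 3 was 0.91 for ARFGAP3, 0.72 for CDKN2B, -0.37 for GOSR2, -0.27 for PSMC4 and 0.65 for SIL1, as log2 differences. For shXBP1 clone 1 minus clone 18 it was 1.42 for CHAC1, 1.41 for DDIT3, 0.94 for ERN1, 0.84 for BACH2, 0.81 for EDEM1, 0.73 for INSIG1 and 0.70 for CREB3L2. It was 0.56 for GPRC5D, 0.45 for B2M, 0.34 for FANCF and 0.32 for SCD, and below 0 for CD83 (-0.88), HSP90AA1 (-0.59), NOP58 (-0.46) and PRDM1 (-0.32). The stress genes CHAC1, DDIT3, EDEM1 and ERN1 rose in shXBP1 clone 1 and fell in clone 18, and all 4 had a higher 0 h level in clone 18. The part of that starting level in the difference was not tested. With 3 libraries a group, no single library was tested as standing apart.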

How the results depend on the processing

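Leaving out 1 library at a time gave 10452 to 10807 genes with a different response, 11871 to 12656 for shIRE1 and 4698 to 6252 for shXBP1, 119 to 151 higher and 371 to 415 lower after shIRE1 only, 2 to 4 lower after shXBP1 only, 33 to 55 higher and 49 to 143 lower in opposite directions, and 72 to 157 higher and 161 to 225 lower in all 4 clones. Counts moved by over 1.5 times without shIRE1 clone 3, 48 h replicate 3 (2 lower after shXBP1 only) and, for shXBP1 clone 18, without 0 h replicate 1 (opposite lower 53, shared higher 78), 0 h replicate 3 (shared higher 73), 48 h replicate 1 (opposite higher 33, opposite lower 51, shared higher 78), 48 h replicate 2 (opposite lower 49, shared higher 72) and 48 h replicate 3 (opposite lower 143). Genes lower after shXBP1 only were 2 with 48 libraries, with 47 and with limma, and 1 with library totals alone. With 48 libraries 31 genes were opposite and higher, and without the filter 79 were shared and higher. Library totals alone, chosen after seeing the data, gave 212 higher after shIRE1 only, 280 shared higher and 126 shared lower, moved the median of all genes by 0.0954 and the share of higher calls from 51.1% to 60.2%. Asking for log2 0.5 gave 669 higher and 1322 lower after shIRE1 only and 12 and 24 after shXBP1 only. For shIRE1 clone 3 against shXBP1 clone 1, 1790 genes were lower by 2-fold or more.

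The replicate numbers did not pair the samples throughout (3 of 12 correlations over 0.1, from -0.624 to 0.742). The 3 were all in the shXBP1 arm, at 0.742 and 0.691 in clone 1 and 0.366 in clone 18. A replicate block within clones gave 10756 genes with a different response and 5927 for shXBP1, and a block over all clones gave 10827.

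Most named genes were picked for large called differences in these same libraries, so that a kept call without 1 library was likely from the start. All 3528 refits of named genes without 1 library kept their call and direction. Of 588 in single clone pairs, 540 did, 32 no longer passed and 16 reversed. The reversed log2 differences were, for shIRE1 clone 1 against shXBP1 clone 18, PSMC4 -0.064, CAD -0.12, HMOX1 -0.15, IMPDH1 -0.028, BACH2 0.12, DNAJB9 0.26, CHAC1 0.27, OASL 0.15, CDKN2B 0.13, B2M 0.23, DDIT3 0.49 and INSIG1 0.42, and for shIRE1 clone 3 against shXBP1 clone 1, CD83 0.55, FANCF -0.097, ARFGAP3 -0.21 and UHRF1 0.046. CD83 and CCL3L3 did not pass with 48 libraries, nor B2M with library totals. In some clone pairs lists moved by over 1.5 times, as for ATF4 targets (35 to 21 lower), ER to Golgi traffic (28 to 18) and cholesterol synthesis (17 to 9). The cause was not tested in any of these. With 2 clones a target, what belongs to a clone and what belongs to its target are separated only by agreement of 2 clones. Genes below 1 CPM, such as TRIM22 at 0 h, have wide intervals.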

Other observations

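The comparison was also fitted at 24 and 72 h in a model of all 48 libraries. These times share the 0 h libraries with the 48 h comparison, so the values are given side by side only. The 72 h values include the shXBP1 library that looked like a different clone and was kept out of the main fit. The part of that library in the 72 h values was not tested. Of 18445 genes, the difference passed in 7144 (38.7%) after 24 h. After 48 h it passed in 10493 (56.9%) and after 72 h in 10207 (55.3%). Of the 65 mitosis genes 64 were lower after shIRE1 at 24 h (median difference -1.21) and 64 at 72 h (-1.40), and of 50 DNA replication genes 49 were lower at 24 h (-1.09). Interferon-stimulated genes were higher in 16 and lower in 2 at 24 h (median 0.39), and higher in 29 and lower in 3 at 72 h (1.07). ER to Golgi traffic had 13 lower and 5 higher at 24 h (-0.054), and the glycolysis and hypoxia list 11 lower and 6 higher (0.010).

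Of single genes, PRC1 was at -1.93 at 24 h and -2.21 at 72 h (log2 difference), and CD59 at 1.41 and 1.58. IRF4 was at -0.54 and -1.69, PFKFB4 at 0.16 and -4.08, and MYC at -0.083 and -0.63. TENM3, which at 48 h rose mainly in shIRE1 clone 3, was at 0.048 and -0.92. All these 72 h values include the shXBP1 library that looked like a different clone.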
